A study of Trichoderma asperellum with 12 samples.

Results

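The comparison described here is that of *Trichoderma asperellum* TJ01 mycelium kept for 24 h with 100 μg/mL dichlorvos, the lowest dose of the series, against untreated mycelium. Its members are the genes with a mean of at least 1 FPKM over the 6 libraries of these groups, 8635 of the 11647 genes of the deposited table. FPKM count fragments relative to the length of the transcript, in kilobases, and to the mapped fragments of the library. Each group was sequenced in 3 libraries, labelled CK (0 μg/mL, the control) and D1 (100 μg/mL), and the series holds 12 libraries in all, with the other libraries at 500 and 1000 μg/mL. Mycelium of both groups carried no engineered allele in the labels and came from a spore suspension grown in potato dextrose medium for 24 h. It was then moved to Burk broth, a nitrogen-poor medium, with or without dichlorvos, and kept at 28 °C and 180 rpm. The labels number the replicates but do not say whether they were separate cultures, so the p-values below measure the spread between these libraries, which may be technical in part. No tested gene matched a list of conidiation proteins, so the share of spores in the cultures could not be checked against markers.

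Dichlorvos is an organophosphorus insecticide that phosphorylates the active serine of acetylcholinesterase in animals, and it is an ester that hydrolases can split. *Trichoderma* are filamentous soil fungi used in biological control, known for secreting chitinases and glucanases against other fungi and for coating their hyphae with hydrophobins. In such fungi, amino acids and fatty acids serve as carbon sources through the same endpoints. Breakdown of amino acids and β-oxidation of fatty acids in peroxisomes and mitochondria yield acetyl-CoA, acetoacetate, succinate or fumarate, and the glyoxylate cycle turns acetyl-CoA into new sugar precursors.

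Control replicate 1 stood apart from the other controls. Across the genes tested, its log2(FPKM + 1) correlated with control replicates 2 and 3 at r = 0.888 and 0.887, whereas replicates 2 and 3 correlated at 0.983 and the libraries at 100 μg/mL among themselves at 0.968 to 0.981. The median FPKM of the tested genes was 27.9 in control replicate 1, 16.5 and 17.6 in the other controls, and 22.5, 21.0 and 19.4 at 100 μg/mL. Counts of called genes are therefore given with all 3 controls and with control replicates 2 and 3 alone. Leaving control replicate 1 out moved the median log2 fold change of all genes from 0.01 to 0.20, so changes in that fit are read against 0.20.

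At the lowest dose, rises far outnumbered falls with the deposited scaling. With 6 libraries, 152 genes were upregulated (1.76% of the genes tested) and 6 were downregulated (0.0695%). A gene was called when limma, fitted on log2(FPKM + 1), gave a Benjamini-Hochberg adjusted p under 0.05 and a log2 fold change beyond 1 in either direction. Without control replicate 1, 590 genes (6.83%) were upregulated and 80 (0.926%) downregulated, and these included all 152 and all 6 of the first fit. The labels name no pairing of control and treated libraries, so a block by replicate number is an alternative only. With libraries of the same number taken as a block, 319 genes (3.69%) were higher and 21 (0.243%) lower. All 152 and all 6 were again among them. After subtraction of the library medians, and with control replicate 1 left out, the split was 357 higher (4.13%) against 217 lower (2.51%), so the excess of rises depended in part on the scaling between libraries. Of all genes tested, 1065 (12.3%) had all 3 libraries at 100 μg/mL above the 3 controls and 685 (7.93%) had all 3 below. Against control replicates 2 and 3 alone these numbers were 2871 (33.2%) and 1260 (14.6%). In every one of the 158 called genes the groups did not overlap. In these bulk libraries, fewer cells of a type and less RNA per cell cannot be told apart.

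The 152 upregulated genes had a median log2 fold change of 2.31 and a range of 1.11 to 5.29, and 53 of them reached a mean of at least 100 FPKM at 100 μg/mL. No KEGG or GO entry was given for 53 of them. Among the genes called higher without control replicate 1 alone, 438 in number, that library lay above both other controls in 343 genes and reached at least the lowest library at 100 μg/mL in 171. For such genes the outcome turned on whether control replicate 1 was counted.

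The calls also depended on the other libraries. Leaving out control replicate 2 gave 71 higher and 0 lower genes, leaving out control replicate 3 gave 85 and 1, and leaving out treated replicate 1, 2 or 3 gave 52 and 1, 23 and 0, and 32 and 0. A total of 22 of the 152 higher calls, and 0 of the 6 lower ones, held whichever of the 6 libraries was left out. The other calls with 6 libraries ended without at least 1 library.

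**Figure D1:**
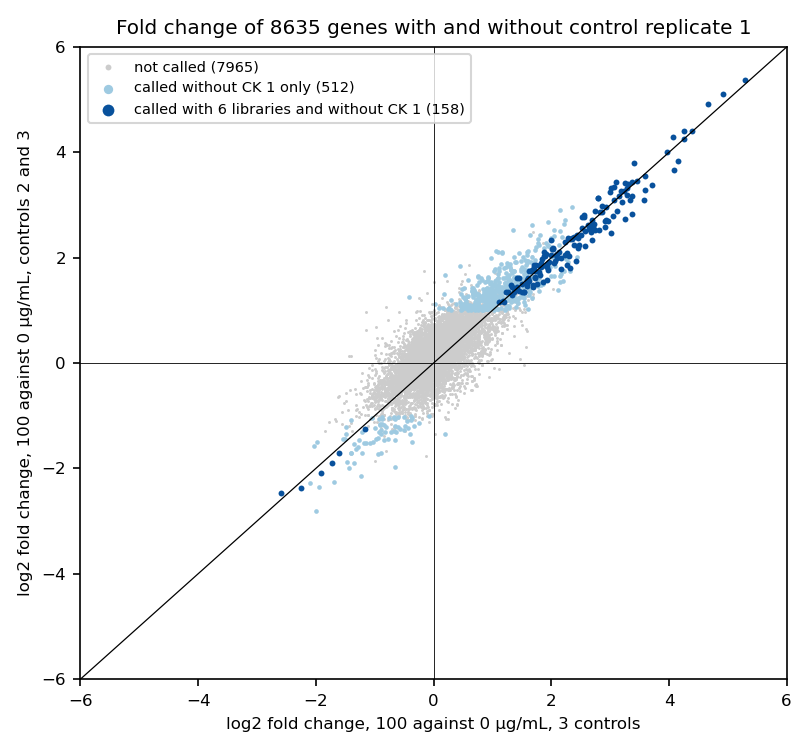
Log2 fold change at 100 against 0 μg/mL of each gene tested, with 3 controls on the x axis and with control replicates 2 and 3 on the y axis; the diagonal marks equal values. Dark points are the 158 genes called with 6 libraries, and they lie close to the diagonal, whereas the 512 light points were called without control replicate 1 only.

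The list of amino acid breakdown held 8 rises among 28 tested genes with 6 libraries and 13 without control replicate 1, and no fall in either fit. Its median log2 fold change was 0.75 with 6 libraries and 0.63 without control replicate 1. All 3 treated libraries lay above the 3 controls in 12 of its genes and below them in 3, beside 12.3% and 7.93% of all genes. The pathways of single amino acids described next were drawn up from KEGG names after the values were seen, so their counts and medians are a description of chosen genes.

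Genes for the breakdown of tyrosine and phenylalanine rose together at the lowest dose. In this pathway an aminotransferase turns tyrosine into 4-hydroxyphenylpyruvate, a dioxygenase makes homogentisate from it, homogentisate dioxygenase opens the ring, and an isomerase and fumarylacetoacetase carry the product to fumarate and acetoacetate. Of the 8 genes tested out of 13 with such an annotation, 6 rose with 6 libraries and 7 without control replicate 1, none fell in either fit, and the median log2 fold change was 2.62 and 2.63.

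Homogentisate dioxygenase (jgi_Trias1_66094) was at 27.1, 70.7 and 109.8 FPKM in the controls and at 568, 561 and 787 FPKM at 100 μg/mL. The lowest treated library was thus more than 5 times the highest control, although the controls themselves differed and control replicate 1 was the lowest. Its log2 fold change was 3.38 ± 0.47 (SE; limma adjusted p = 0.0127), and 2.83 ± 0.24 without control replicate 1. The gene of the preceding step, 4-hydroxyphenylpyruvate dioxygenase (jgi_Trias1_42711), was among the 5 most abundant called genes, with 196, 168 and 236 FPKM in the controls and 1092, 1137 and 1016 FPKM at 100 μg/mL. It rose by 2.44 ± 0.22 on the log2 scale (adjusted p = 0.00319), with no overlap and with little spread in either group. Fumarylacetoacetase (jgi_Trias1_133828) stood at 33.2, 26.5 and 37.5 FPKM in the controls and at 237, 257 and 262 FPKM with dichlorvos, a log2 fold change of 2.93 ± 0.22 (adjusted p = 0.00149).

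Maleylacetoacetate isomerase (jgi_Trias1_51869) rose from 9.21, 8.12 and 9.15 FPKM to 42.9, 59.4 and 45.9 FPKM. An aromatic amino acid aminotransferase (jgi_Trias1_23071), which acts at the start of the pathway, was low in the controls at 3.66, 0.90 and 1.69 FPKM and reached 21.7, 18.4 and 17.1 FPKM. These genes had log2 fold changes of 2.35 and 2.79 (adjusted p = 0.00644 and 0.0137). Phenylacetate 2-hydroxylase (jgi_Trias1_178916), whose product is turned into homogentisate in *Aspergillus nidulans*, went from 2.58, 6.36 and 11.7 FPKM to 82.5, 76.2 and 85.4 FPKM, with a log2 fold change of 3.57 ± 0.45 (adjusted p = 0.00924). The calls of the dioxygenase jgi_Trias1_42711 and of fumarylacetoacetase held whichever library was left out, while those of the other 4 genes ended without at least 1 treated library. The pathway also held members that did not rise with 6 libraries. A second aromatic aminotransferase (jgi_Trias1_130512) had 4.82, 0.54 and 0.74 FPKM in the controls against 6.90, 5.47 and 3.17 FPKM, and was called only without control replicate 1. A second 4-hydroxyphenylpyruvate dioxygenase (jgi_Trias1_33242) was lower in all treated libraries, at 5.08, 9.22 and 3.76 FPKM against 20.0, 9.89 and 10.7 FPKM, and passed the test in neither fit (adjusted p = 0.351 and 0.186).

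At the higher doses the same genes were also measured against the same controls. For 4-hydroxyphenylpyruvate dioxygenase, the 3 libraries at 500 μg/mL gave 650.5, 512 and 438 FPKM and those at 1000 μg/mL gave 304, 501 and 379.5 FPKM, and every one of these lay below the 3 libraries at 100 μg/mL. For fumarylacetoacetase the values were 210.1, 189 and 174 FPKM at 500 μg/mL and 91.8, 145 and 146 FPKM at 1000 μg/mL. The aminotransferase jgi_Trias1_23071, in contrast, had 26.2, 49.1 and 30.8 FPKM at 1000 μg/mL. The differences between doses were not tested here.

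Genes of branched-chain amino acid breakdown were upregulated along the pathway. Valine, leucine and isoleucine are first transaminated, the 2-oxo acids then pass through the branched-chain 2-oxoacid dehydrogenase of mitochondria, and separate branches follow. With 6 libraries 9 of 18 tested genes rose and none fell, 13 rose without control replicate 1, and the median log2 fold change was 1.44 and 1.54. The branched-chain aminotransferase jgi_Trias1_140021 had 170.3, 202 and 256 FPKM in the controls and 559, 846 and 809.7 FPKM at 100 μg/mL, a log2 fold change of 1.81 ± 0.27 (adjusted p = 0.015). Of the other 3 tested genes of this name, jgi_Trias1_53902 was called only without control replicate 1, and jgi_Trias1_28585 and jgi_Trias1_28542 were called in neither fit. None of the 9 calls held whichever library was left out, with 3 and 7 of them left without control replicates 2 and 3 and 2, 0 and 0 without treated replicates 1, 2 and 3.

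The 3 subunit genes of the dehydrogenase complex moved alike. E1 alpha (jgi_Trias1_33646) went from 112, 60.0 and 90.3 FPKM to 252, 217 and 218 FPKM. E1 beta (jgi_Trias1_87144) went from 90.8, 54.9 and 79.1 FPKM to 210.0, 197 and 204 FPKM, and E2 (jgi_Trias1_171716), the acyltransferase core, from 67.3, 38.2 and 64.9 FPKM to 188, 219 and 219 FPKM. Their log2 fold changes were 1.42 ± 0.27, 1.46 ± 0.25 and 1.90 ± 0.27 (adjusted p = 0.0489, 0.0285 and 0.0138), and in each the groups were apart. In the valine branch, 3 genes annotated as 3-hydroxyisobutyrate dehydrogenase rose. jgi_Trias1_59281 was the most abundant of them, with 22.4, 29.6 and 52.7 FPKM in the controls and 169.5, 189 and 192 FPKM at 100 μg/mL, and jgi_Trias1_52835 and jgi_Trias1_61109 had log2 fold changes of 3.01 and 2.72. The malonate- and methylmalonate-semialdehyde dehydrogenase jgi_Trias1_135121, the next step of this branch, rose from 156, 169 and 209 FPKM to 499.6, 465 and 501 FPKM, by 1.46 ± 0.21 on the log2 scale (adjusted p = 0.0145).

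In the leucine branch, some steps were called with 6 libraries and others only in other fits. Isovaleryl-CoA dehydrogenase (jgi_Trias1_160556), had 226, 93.1 and 98.8 FPKM in the controls, and control replicate 1 lay within the range of 232, 272 and 219 FPKM at 100 μg/mL. Its adjusted p was 0.34 with 6 libraries and 0.00312 without that control. Methylglutaconyl-CoA hydratase (jgi_Trias1_161768) reached an adjusted p of 0.0747 with 6 libraries, 0.00216 without control replicate 1 and 0.0276 with the replicate block. At the end of the branch, 3-oxoacid CoA-transferase (jgi_Trias1_133117), which activates acetoacetate, rose from 18.7, 33.3 and 33.3 FPKM to 116, 151 and 156 FPKM (log2 fold change 2.30 ± 0.30, adjusted p = 0.00941). A gene of the same annotation, jgi_Trias1_73728, was more abundant, with 63.3, 1171 and 1125 FPKM in the controls and 645, 1320.4 and 2108 FPKM at 100 μg/mL. In that gene control replicate 1 lay far below the other controls, the groups overlapped and no fit called it.

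Several genes that lead from arginine, ornithine and 4-aminobutyrate (GABA) to succinate were also higher. Of 20 tested genes of arginine, proline and GABA breakdown, 5 rose with 6 libraries and 7 without control replicate 1. Succinate-semialdehyde dehydrogenase (jgi_Trias1_90547), which makes succinate, was at 3.79, 7.38 and 9.15 FPKM in the controls and at 82.9, 89.1 and 96.0 FPKM at 100 μg/mL, a log2 fold change of 3.60 ± 0.34 (adjusted p = 0.00319). Its call held whichever library was left out, and it was the only one of the 5 to do so. GABA transaminase (jgi_Trias1_139539) went from 106, 169 and 249 FPKM to 665, 587 and 554 FPKM. A second transaminase of the same annotation (jgi_Trias1_67914) was far more abundant at 1101, 2356 and 3517 FPKM in the controls. It had 3442, 3268 and 3524 FPKM with dichlorvos and was called in neither fit. Arginase (jgi_Trias1_186713), which releases ornithine and urea, rose from 11.7, 10.5 and 13.0 FPKM to 33.3, 49.5 and 51.9 FPKM. Ornithine transaminase (jgi_Trias1_138282), which removes the δ-amino group of ornithine, rose from 50.1, 65.4 and 84.2 FPKM to 202, 192 and 178 FPKM. These 3 called genes had log2 fold changes of 1.86, 1.83 and 1.53 (adjusted p = 0.0306, 0.0206 and 0.0241). The 1-pyrroline-5-carboxylate dehydrogenase jgi_Trias1_30771, of proline breakdown, had 38.8, 112 and 171 FPKM in the controls and 392, 423 and 403 FPKM at 100 μg/mL, with an adjusted p of 0.0861 with 6 libraries, 0.00383 without control replicate 1 and 0.00604 with the block.

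Tryptophan breakdown through kynurenine counted 3 rises with 6 libraries and 5 without control replicate 1 among 9 tested genes. Indoleamine 2,3-dioxygenase (jgi_Trias1_140487), which opens the indole ring, had 2.29, 3.29 and 5.25 FPKM in the controls and 25.1, 32.6 and 41.8 FPKM at 100 μg/mL (log2 fold change 2.91 ± 0.37, adjusted p = 0.00917). jgi_Trias1_60896 and jgi_Trias1_142955, annotated as kynurenine aminotransferases, rose by 2.06 and 1.58 on the log2 scale. Kynureninase (jgi_Trias1_145075) was at 40.2, 14.5 and 18.9 FPKM against 91.2, 75.1 and 64.6 FPKM and was called without control replicate 1 (adjusted p = 0.00162) and with the block (0.00848), not with 6 libraries (0.081). None of the 3 calls with 6 libraries held whichever library was left out, and 0 of them remained without treated replicate 2.

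Among 9 genes of threonine, serine and glycine breakdown, 3 rose with 6 libraries and 4 without control replicate 1. A threonine dehydratase (jgi_Trias1_189670) was nearly silent in the controls at 0, 0.37 and 0.37 FPKM and reached 10.1, 9.44 and 11.6 FPKM, a call that held whichever library was left out. The aminomethyltransferase of glycine cleavage (jgi_Trias1_61607) rose from 35.0, 41.6 and 47.5 FPKM to 120.0, 125 and 128 FPKM. The serine and threonine ammonia-lyase jgi_Trias1_56770 rose from 42.1, 53.5 and 38.1 FPKM to 99.5, 108 and 99.0 FPKM.

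**Figure D2:**
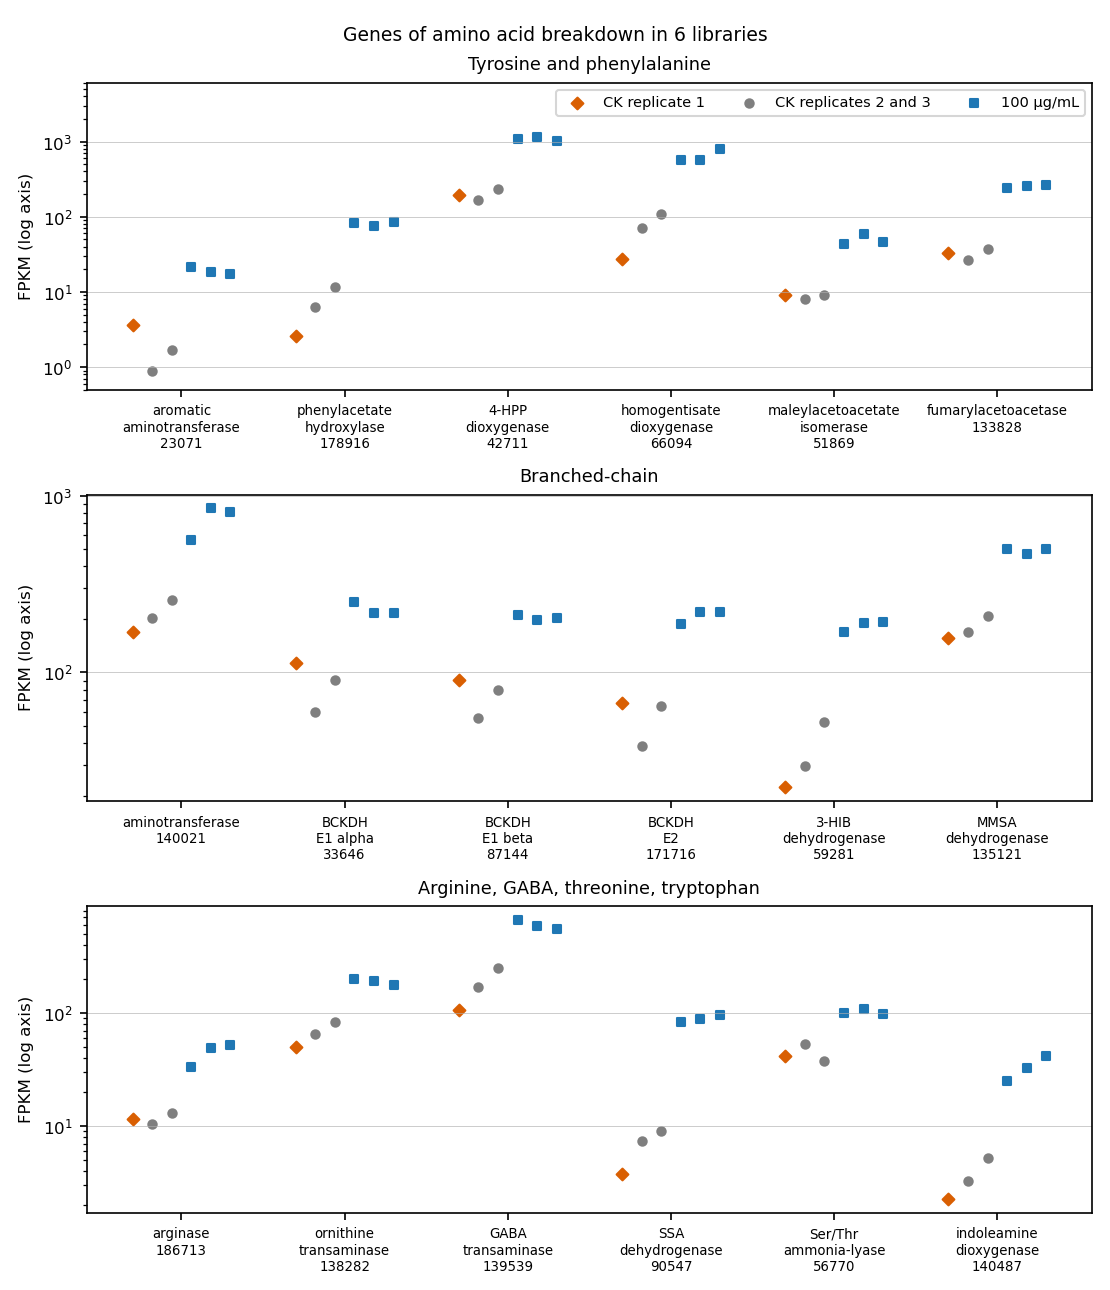
FPKM of 18 genes of amino acid breakdown in each library, on a log axis, with gene identifiers shortened to their last digits. Diamonds are control replicate 1, circles control replicates 2 and 3 and squares the 3 libraries at 100 μg/mL. The 18 genes were chosen among those called higher with 6 libraries, so every square lies above every control by that choice. Members of these pathways that overlapped or were lower are not plotted. 4-HPP is 4-hydroxyphenylpyruvate, BCKDH the branched-chain 2-oxoacid dehydrogenase, 3-HIB 3-hydroxyisobutyrate, MMSA malonate and methylmalonate semialdehyde and SSA succinate semialdehyde.

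Enzymes that hydroxylate or cleave simple aromatic rings were mixed. Of 30 tested genes, 3 rose with 6 libraries, whereas 8 rose and 1 fell without control replicate 1. A catechol 1,2-dioxygenase (jgi_Trias1_174687) went from 4.97, 7.36 and 7.92 FPKM to 37.3, 44.3 and 27.2 FPKM (log2 fold change 2.26 ± 0.32, adjusted p = 0.0137). Salicylate hydroxylases are flavin enzymes that make catechol. jgi_Trias1_50054, 1 of the genes of this name, was at 0, 0.90 and 1.27 FPKM in the controls and at 9.60, 8.96 and 9.95 FPKM at 100 μg/mL, and jgi_Trias1_90970 reached 10.1, 6.76 and 6.11 FPKM from at most 0.69 FPKM in any control. None of the 3 calls remained without control replicate 2 or without any of the treated libraries. Another gene of this name, jgi_Trias1_133934, had 18.2, 64.9 and 52.0 FPKM in the controls and 15.5, 15.9 and 13.5 FPKM at 100 μg/mL, and fell in the fit without control replicate 1 only (adjusted p = 0.00178, against 0.272 with 6 libraries).

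Most genes of fatty acid oxidation lay above the controls at 100 μg/mL, by moderate changes that the 6-library fit called in 1 gene, a share near the 1.76% of all genes. Of 38 tested genes of fatty acid oxidation, all 3 treated libraries lay above the 3 controls in 23 and below them in 0, beside 12.3% and 7.93% of all genes. Against control replicates 2 and 3 alone the counts were 32 and 0, beside 33.2% and 14.6%. With each library centred they were 22 and 2, beside 935 and 1032 of all 8635 genes. limma called 1 of them higher with 6 libraries, 17 without control replicate 1, 10 with the replicate block, and 6 on centred values without control replicate 1. The median log2 fold change was 1.0 with 6 libraries and 1.20 without control replicate 1, beside 0.01 and 0.20 over all genes. None was called lower in these fits. Summed over the list, FPKM were 6668, 6538 and 4876 in the controls and 11124, 13487 and 10566 at 100 μg/mL, and the sums did not overlap. FPKM are shares of a library, so a larger sum cannot be told apart from a smaller total of other transcripts.

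The called member was an enoyl-CoA hydratase (jgi_Trias1_246336), an enzyme of the second step of β-oxidation, with 15.6, 13.9 and 10.3 FPKM in the controls and 120.4, 112 and 79.5 FPKM at 100 μg/mL (log2 fold change 2.87 ± 0.28, adjusted p = 0.00328). Its call ended only without treated replicate 2 (adjusted p = 0.0516). A second enoyl-CoA hydratase (jgi_Trias1_127272) went from 138, 84.7 and 91.7 FPKM to 216, 247 and 226 FPKM, with an adjusted p of 0.0732 with 6 libraries, 0.00203 without control replicate 1 and 0.0316 with the block. The thiolase jgi_Trias1_171388, which cleaves off acetyl-CoA, was at 698, 459.7 and 322 FPKM in the controls, with control replicate 1 the highest, and at 1199.7, 1263 and 983 FPKM with dichlorvos (adjusted p = 0.112, 0.00379 and 0.0276 in the same order of fits). A carnitine acetyltransferase (jgi_Trias1_142178), which moves acetyl units between compartments, was the most abundant member at 100 μg/mL, with 1029.6, 1266 and 1431 FPKM in the controls and 2426, 2715 and 2418 FPKM at 100 μg/mL. Its groups were apart and its adjusted p was 0.103 with 6 libraries, and without control replicate 1 its log2 fold change of 0.90 stayed below 1.

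Peroxins, the proteins that build peroxisomes and import their enzymes, numbered 23. All 3 treated libraries lay above the controls in 13 of them and below in 0, beside 12.3% and 7.93% of all genes. Against control replicates 2 and 3 alone the counts were 18 and 0, beside 33.2% and 14.6% of all genes. Under centring of each library on its median they were 9 and 1, beside 935 and 1032 of all 8635 genes. limma called 0 higher with 6 libraries, where 14 had an unadjusted p under 0.05 and a positive change, and the rule of the study's methods (NOISeq, a probability above 0.8 and a log2 ratio beyond 1) called 0. Without control replicate 1 limma called 7 higher and NOISeq 6, the replicate block gave 7, and centring without control replicate 1 gave 1. The median log2 fold change was 0.94 and 1.08. Peroxisomal membrane protein 4 (jgi_Trias1_59588) had 88.3, 93.6 and 54.1 FPKM in the controls and 174, 251 and 155 FPKM at 100 μg/mL. Peroxin-2 (jgi_Trias1_57999), a ring-finger protein of the import machinery, had 43.8, 93.2 and 52.8 FPKM against 117, 194 and 176 FPKM, and in both genes the groups were apart. The block called both (adjusted p = 0.0144 and 0.0109), and the 6-library fit did not (0.093 and 0.11). Peroxin-14 (jgi_Trias1_53874), a docking protein, stood at 218, 208 and 121 FPKM in the controls and 323, 432 and 306 FPKM with dichlorvos. Of the 23 genes, 6 shared the KEGG name peroxin-3, among them jgi_Trias1_135871 with 89.8, 50.7 and 29.2 FPKM in the controls and 97.7, 129.7 and 77.1 FPKM at 100 μg/mL. Without these 6, the remaining 17 counted 12 above and 0 below all controls, with a median log2 fold change of 0.98. The sterol carrier protein 2 gene jgi_Trias1_61501, a thiolase-related lipid carrier found in peroxisomes, was called with 6 libraries, rising from 152, 160.5 and 86.9 FPKM to 389.8, 534 and 353 FPKM (log2 fold change 1.70 ± 0.31, adjusted p = 0.0363), and no longer called without any 1 of the libraries other than control replicate 1.

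In the TCA and glyoxylate cycles, 2 of 31 tested genes rose with 6 libraries, 5 without control replicate 1 and 5 with the block, and none fell in these fits. The median log2 fold change was 0.29 with 6 libraries and 0.30 without control replicate 1, beside 0.01 and 0.20 over all genes. On centred values without control replicate 1 it was 0.02, beside -0.08 over all genes. Malate synthase (jgi_Trias1_132204), which joins glyoxylate with acetyl-CoA, was 1 of the 5 most abundant called genes, at 895, 884 and 686 FPKM in the controls and 2662, 3526 and 2563 FPKM with dichlorvos (log2 fold change 1.82 ± 0.26, adjusted p = 0.0137). Citrate synthase jgi_Trias1_200927 rose from 173, 159 and 204 FPKM to 394, 516 and 474 FPKM, by 1.36 ± 0.22 (adjusted p = 0.0241). Neither call remained when any library other than control replicate 1 was left out. The other citrate synthases were called in no fit, among them the most abundant one (jgi_Trias1_27897), at 695, 1051 and 878 FPKM in the controls and 911, 1398 and 1701 FPKM at 100 μg/mL.

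Isocitrate lyase (jgi_Trias1_22393), the enzyme that splits isocitrate at the entry to the glyoxylate cycle, stood at 1059, 1837 and 1277 FPKM in the controls and 2892, 3663 and 3177 FPKM at 100 μg/mL, with no overlap. Its adjusted p was 0.0934 with 6 libraries, 0.017 without control replicate 1 and 0.0478 with the block. Isocitrate dehydrogenase jgi_Trias1_139899 showed 127, 102 and 69.0 FPKM against 219.9, 259 and 209 FPKM, with adjusted p of 0.0767, 0.006 and 0.0215. The succinate dehydrogenase iron-sulfur subunit jgi_Trias1_51244 had 405, 342 and 333 FPKM in the controls and 488, 555 and 502 FPKM at 100 μg/mL, a log2 fold change of 0.52 with an adjusted p of 0.355. The flavoprotein gene jgi_Trias1_67943 was at or below 0.35 FPKM in every control and at 1.35, 5.91 and 2.22 FPKM with dichlorvos (adjusted p = 0.152). Outside the list, pyruvate carboxylase (jgi_Trias1_53474), which replenishes oxaloacetate, rose from 145, 117 and 122 FPKM to 308, 299 and 314 FPKM (log2 fold change 1.26 ± 0.20, adjusted p = 0.0233), and the citrate carrier jgi_Trias1_52915 of the mitochondrial membrane rose by 1.69. Oxaloacetate is the acceptor of acetyl-CoA in the cycle. In glycolysis and gluconeogenesis 3 of 29 genes rose without control replicate 1 and 1 with 6 libraries, a pyruvate decarboxylase (jgi_Trias1_43082) with at most 0.77 FPKM in any control and 19.8, 14.1 and 9.17 FPKM at 100 μg/mL.

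Transcripts for cytosolic ribosomal proteins were lower at 100 μg/mL, by less than the threshold on the fold change. In 77 of 86 tested genes, all 3 treated libraries lay below the 3 controls, beside 7.93% of all genes, and in 0 they lay above. All 86 log2 fold changes with 6 libraries were negative, between -0.82 and -0.04, with a median of -0.60 (-0.48 without control replicate 1). limma called 0 of them lower, although 63 had an unadjusted p under 0.05 and a negative change, and NOISeq called 0. Without control replicate 1, 23 had an adjusted p under 0.05, none with a log2 change beyond 1. Centred values without control replicate 1 gave 3 called lower and a median of -0.76. Summed FPKM of the list were 61334, 45970.0 and 47323 in the controls and 33047, 34843 and 33297 at 100 μg/mL. Control replicate 1 had the highest sum, and the other controls also stood above every treated library. The count of genes below all controls was 77 under rescaling to TPM, 78 under centring and 79 against control replicates 2 and 3 alone. Over all 8635 genes it was 687, 1032 and 1260 in the same order.

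Ribosome biogenesis factors, which process ribosomal RNA and assemble the subunits in the nucleolus, showed a similar direction with more dependence on control replicate 1. Of 79 genes, 51 had all 3 treated libraries below the controls and 1 had them above, beside 7.93% and 12.3% of all genes. The counts below and above were 53 and 8 against control replicates 2 and 3 alone, beside 1260 and 2871 of all 8635 genes. With each library centred they were 60 and 3, beside 1032 and 935 of all genes. The list had a median log2 fold change of -0.76 with 6 libraries and -0.42 without control replicate 1. Summed FPKM were 10516, 5449.5 and 5944 in the controls against 4055, 4376 and 4087, so control replicate 1 was well above the other controls. limma called 0 lower with 6 libraries and 0 without control replicate 1, 35 had an unadjusted p under 0.05 and a negative change, and NOISeq called 0. Centred values without control replicate 1 gave 6 lower. The exception was jgi_Trias1_78678, 1 of 4 genes with the KEGG name SSF1/2, which rose from 1.10, 1.60 and 1.53 FPKM to 24.3, 21.6 and 21.3 FPKM (log2 fold change 3.28 ± 0.30, adjusted p = 0.00319) and was called whichever library was left out. It had 0.37, 0.82 and 0.70 FPKM at 1000 μg/mL.

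Mitochondrial translation and respiration had medians nearer to 0. The mitochondrial ribosome had a median of -0.35 and -0.20 over 54 genes, 16 of them with all treated libraries below the controls, beside 7.93% of all genes. Without control replicate 1 limma called 1 of them higher and 0 lower. Oxidative phosphorylation had -0.14 and 0.03 over 51 genes, with no call in either direction in either fit, and 5 genes below all controls. Centring each library on its median moved the counts below all controls to 25 and 14 for these lists, beside 1032 of all genes. At an unadjusted p under 0.05, 2 genes of the mitochondrial ribosome were lower and 0 of oxidative phosphorylation, and NOISeq called 0 and 0.

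**Figure D3:**
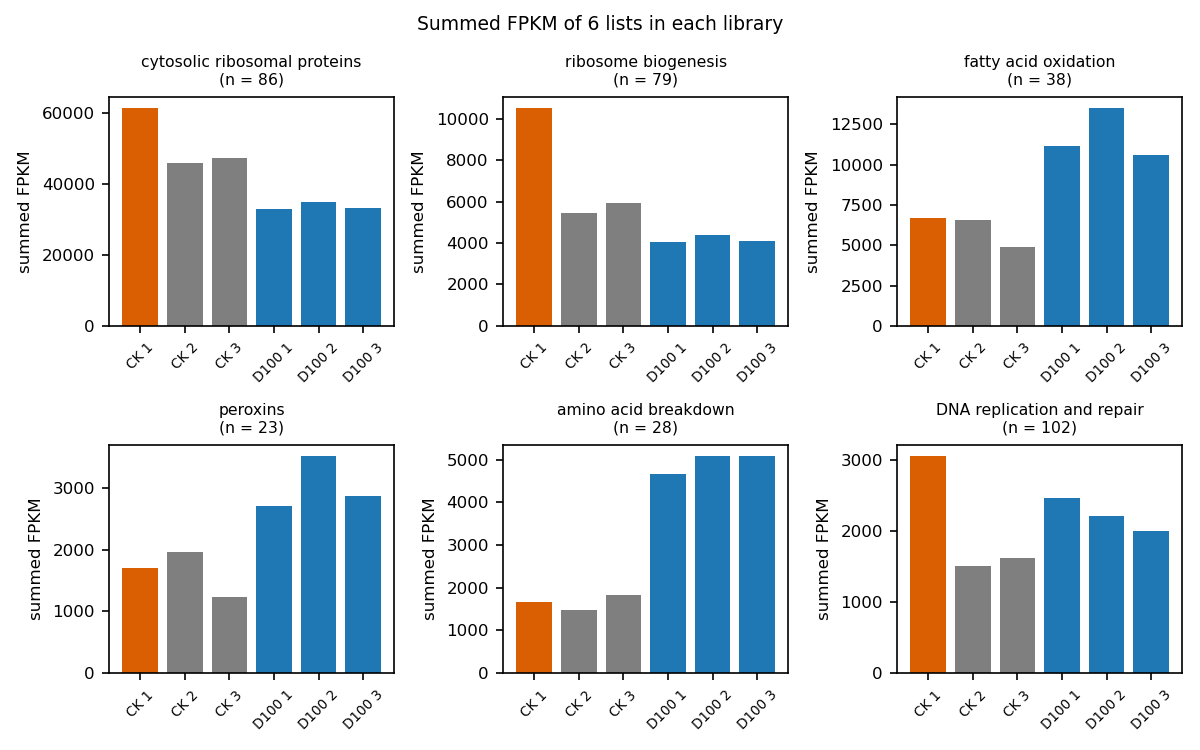
FPKM summed over 6 lists in each library (CK, control; D100, 100 μg/mL), with control replicate 1 in orange, control replicates 2 and 3 in grey and the libraries at 100 μg/mL in blue. For ribosomal proteins and ribosome biogenesis all blue bars are below the controls, for fatty acid oxidation, peroxins and amino acid breakdown all are above, and for DNA replication and repair control replicate 1 exceeds every treated library.

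Hydrophobins are small amphipathic proteins that coat aerial hyphae and spores. The hydrophobin jgi_Trias1_54184 was the most abundant called gene, with 1257, 1116 and 1229 FPKM in the controls and 7042, 9137 and 9612 FPKM at 100 μg/mL, a log2 fold change of 2.83 ± 0.27 (adjusted p = 0.00319). It was the only one of 11 tested hydrophobins called with 6 libraries, and that call held whichever library was left out. Control replicate 1 and the block changed this count. Without control replicate 1, 3 rose and 1 fell, and with the block 4 rose and 1 fell. The hydrophobin jgi_Trias1_54328 had 289.5, 715 and 700.4 FPKM in the controls, with control replicate 1 the lowest, and 1500.4, 1885 and 2154 FPKM at 100 μg/mL (adjusted p = 0.0727 with 6 libraries, 0.00457 without control replicate 1 and 0.00594 with the block). jgi_Trias1_60885 showed 159, 592 and 502 FPKM in the controls against 907, 1079 and 1382 FPKM (adjusted p = 0.2, 0.0216 and 0.0202 in the same order). In the opposite direction, jgi_Trias1_320233 was at 46.5, 145 and 165 FPKM in the controls and at 29.9, 44.7 and 40.7 FPKM with dichlorvos, and was called lower without control replicate 1 (adjusted p = 0.00178) and with the block (0.0262), not with 6 libraries (0.249).

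Among 145 tested glycoside hydrolases, 4 rose and 1 fell with 6 libraries, 12 rose and 1 fell with the replicate block, and 13 rose and 3 fell without control replicate 1. The rises with 6 libraries compare with 1.76% of all genes, and they carried annotations of enzymes that cut chitin or β-glucan, polymers of fungal cell walls. A glycoside hydrolase matched in the nr annotation to family 64, which holds β-1,3-glucanases (jgi_Trias1_62853), went from 77.7, 115 and 137 FPKM to 712, 737 and 732 FPKM, by 2.75 ± 0.26 on the log2 scale (adjusted p = 0.00319), and was called whichever library was left out. The other 4 calls ended without at least 1 library. The chitinase gene matched to CHI42 (jgi_Trias1_72752), an endochitinase, was at 4.16, 5.75 and 6.25 FPKM in the controls and at 40.0, 39.7 and 40.7 FPKM with dichlorvos, with little spread between the treated libraries and a log2 fold change of 2.70 ± 0.28 (adjusted p = 0.00446). A β-1,3(4)-endoglucanase (jgi_Trias1_172639) rose from 33.5, 43.3 and 48.2 FPKM to 168, 177 and 171 FPKM. The chitinase jgi_Trias1_41515 rose from 0.66, 1.99 and 0.54 FPKM to 11.7, 15.4 and 9.27 FPKM, by 2.71. The gene that fell was an endo-1,4-β-xylanase (jgi_Trias1_63457), which cuts plant hemicellulose, from 19.5, 26.5 and 25.6 FPKM to 5.77, 5.67 and 2.11 FPKM (log2 fold change -2.25 ± 0.40, adjusted p = 0.0322). In a hexosaminidase (jgi_Trias1_157721), which removes end sugars of chitin, control replicate 1 decided the call. It was at 80.9, 296 and 393 FPKM in the controls and 172, 126 and 133 FPKM with dichlorvos, and its adjusted p was 0.838 with 6 libraries and 0.00939 without that control.

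Proteases and peptidases counted 5 rises with 6 libraries and 9 rises and 1 fall without control replicate 1 among 69 tested genes. A gene annotated as methionyl aminopeptidase (jgi_Trias1_198850), an enzyme that trims the first methionine of proteins, went from 3.92, 4.12 and 3.07 FPKM to 70.5, 76.7 and 68.9 FPKM, by 3.96 ± 0.27 (adjusted p = 0.00112), and was the only one of the 5 called whichever library was left out. The pepsin-like aspartic protease jgi_Trias1_183570 rose from 0.37, 3.16 and 1.5 FPKM to 25.6, 42.3 and 58.5 FPKM, by 4.08 ± 0.50 (adjusted p = 0.00783). The trypsin-like serine protease jgi_Trias1_25266 rose from 0.86, 2.36 and 1.64 FPKM to 15.7, 26.8 and 35.1 FPKM. The dipeptidase DUG1-like gene jgi_Trias1_42166, which in yeast cleaves the Cys-Gly product of glutathione breakdown, rose from 50.7, 46.5 and 57.8 FPKM to 148, 146 and 151 FPKM (log2 fold change 1.51 ± 0.21, adjusted p = 0.0123). Among 43 proteasome genes 2 were called in each of the fits with 6 libraries, without control replicate 1 and with the block. The gene jgi_Trias1_30058, whose first KEGG entry is the regulatory subunit N2, rose from 162, 257 and 229.8 FPKM to 1966, 2773 and 1947 FPKM, by 3.37 ± 0.27, and held whichever library was left out. jgi_Trias1_35269, annotated as subunit T1, rose from 40.5, 27.7 and 27.0 FPKM to 76.3, 83.8 and 76.5 FPKM, a call that ended without any library other than control replicate 1. The median of the list was 0.02 with 6 libraries, so these genes were exceptions in it.

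With 6 libraries, each detoxification list of 10 to 31 tested genes held 0 to 2 rises and 0 falls, beside 1.76% and 0.0695% of all genes. In 5 of 11 glutathione S-transferases and 6 of 21 flavin and aldo-keto oxidoreductases all treated libraries lay above the controls, and in 0 below. The counts were 7 and 1 for 30 major facilitator drug transporters, 5 and 0 for 31 ABC transporters, and 1 and 2 for 14 cytochrome P450 genes. Over all genes the shares were 12.3% and 7.93%. With each library centred, these lists counted 2, 5, 6, 4 and 1 above and 0, 1, 0, 2 and 1 below. Over all 8635 genes the centred counts were 935 and 1032. Flavin monooxygenases oxidise nitrogen and sulfur groups of small molecules, and 2 genes annotated as dimethylaniline monooxygenase rose with 6 libraries. The gene jgi_Trias1_198776 was at 4.49, 3.89 and 5.15 FPKM in the controls and at 57.5, 62.4 and 58.6 FPKM at 100 μg/mL, a log2 fold change of 3.46 ± 0.27 (adjusted p = 0.00149), called whichever library was left out. jgi_Trias1_84461 reached 3.71, 3.04 and 3.12 FPKM from at most 0.38 FPKM in any control. Over the whole list of flavin and aldo-keto oxidoreductases, 2 of 21 rose with 6 libraries and 5 without control replicate 1. The NADPH dehydrogenase jgi_Trias1_56683, an old yellow enzyme, had 3.15, 2.10 and 2.89 FPKM in the controls, 5.68, 12 and 13.6 FPKM at 100 μg/mL and 502, 664 and 600.1 FPKM at 1000 μg/mL, and at the lowest dose it was called only without control replicate 1 (adjusted p = 0.0319).

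Of 31 genes annotated as ABC transporters, a family that includes ATP-driven exporters and importers, 1 rose with 6 libraries, 1 with the block and 6 without control replicate 1. The multidrug-resistance type gene jgi_Trias1_60292 rose from 2.91, 4.91 and 4.17 FPKM to 19.8, 23.2 and 20.3 FPKM, by 2.16 ± 0.31 (adjusted p = 0.0137), although the call ended without control replicate 3 or any treated library. The subfamily F member jgi_Trias1_55920 had 13.5, 3.55 and 4.53 FPKM in the controls and 22.5, 24.0 and 16.5 FPKM with dichlorvos. The subfamily G member jgi_Trias1_161492, of the pleiotropic drug resistance kind, had 41.5, 7.12 and 8.41 FPKM in the controls and 27.4, 20.4 and 20.0 FPKM with dichlorvos. In both, control replicate 1 was the highest control, and both were called only without it. Among 30 drug transporters of the major facilitator superfamily 4 rose with the block, 3 without control replicate 1 and 1 with 6 libraries (jgi_Trias1_204111, from at most 0.34 FPKM in any control to 5.07, 10.6 and 4.12 FPKM). jgi_Trias1_174893 of the same list went from 3.95, 13.1 and 16.8 FPKM to 53.5, 57.3 and 47.0 FPKM with an adjusted p of 0.0637 with 6 libraries, 0.00216 without control replicate 1 and 0.00775 with the block.

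The catalase jgi_Trias1_48513 was the only called gene among 13 catalases and superoxide dismutases with 6 libraries, beside 1 without control replicate 1 and 2 with the block, with 12.8, 11.5 and 10.2 FPKM in the controls and 44.0, 46.8 and 29.3 FPKM at 100 μg/mL (log2 fold change 1.69 ± 0.29, adjusted p = 0.0312). Among 11 glutathione S-transferases, which conjugate glutathione to electrophiles, 0 were called with 6 libraries, where 2 had an unadjusted p under 0.05 and NOISeq called 0, and 2 without control replicate 1. The more abundant of them, jgi_Trias1_55913, had 23.6, 40.7 and 36.7 FPKM in the controls, 63.3, 85.2 and 99.9 FPKM at 100 μg/mL and 923, 1048 and 855 FPKM at 1000 μg/mL. At the lowest dose its groups did not overlap, and its adjusted p was 0.0951 with 6 libraries and 0.0196 with the block. Glutathione peroxidase jgi_Trias1_56993 had 452, 454 and 240.0 FPKM against 816, 1113 and 657 FPKM (adjusted p = 0.163 with 6 libraries, 0.0339 without control replicate 1 and 0.0272 with the block).

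Other stress lists held 0 calls with 6 libraries, beside 1.76% of all genes called higher and 0.0695% lower. Thioredoxins, peroxiredoxins and glutaredoxins gave no call over 10 genes with or without control replicate 1, and with 6 libraries 1 rise and 1 fall at an unadjusted p under 0.05 and 0 NOISeq calls. Heat shock proteins and chaperones had a median of 0.04 over 38 genes, between -0.92 and 0.83, with no call with or without control replicate 1. With 6 libraries they counted 1 rise and 3 falls at an unadjusted p under 0.05 and 0 NOISeq calls. All 3 treated libraries lay above the 3 controls in 3 of these 38 genes and below them in 6. In the 10 genes of the thioredoxin list the counts were 3 and 1, beside 12.3% and 7.93% of all genes. The 14 genes annotated as cytochrome P450 gave no call with 6 libraries (1 rise and 1 fall at an unadjusted p under 0.05, 0 by NOISeq) and 1 rise and 2 falls without control replicate 1. This list was drawn from names in the annotation, so enzymes of the family that carry other names are not counted in it. A gene outside that list, jgi_Trias1_201383, annotated as unspecific monooxygenase, rose from 31.6, 36.1 and 38.2 FPKM to 132, 115 and 108 FPKM (log2 fold change 1.72 ± 0.22, adjusted p = 0.00941).

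Acetylcholinesterase is the animal target of dichlorvos. The study reported further genes of this name, none of them significantly altered at this dose. Here the list of carboxylesterases and cholinesterases held 6 annotated genes, of which 2 were tested and 0 were called with or without control replicate 1. Among those tested, jgi_Trias1_311981 is an esterase with that KEGG name. It was at 6.51, 1.03 and 1.33 FPKM in the controls and 2.01, 1.65 and 2.23 FPKM at 100 μg/mL, overlapping and low in both groups (adjusted p = 0.981).

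The list of dehalogenases, enzymes that remove halogens from carbon, and phosphotriester hydrolases held 3 tested genes. Among them, the 2-haloacid dehalogenase jgi_Trias1_58310 had 24.2, 39.3 and 59.9 FPKM in the controls and 85.2, 90.0 and 108 FPKM with dichlorvos, with no overlap. Its log2 fold change was 1.26 ± 0.34, with an adjusted p of 0.149 with 6 libraries, 0.0367 without control replicate 1 and 0.0283 with the block, and without control replicate 1 the change of 0.94 stayed under 1. An amidase (jgi_Trias1_429856), which hydrolyses carboxylic acid amides, was 1 of the 10 largest rises, from 6.94, 6.62 and 7.17 FPKM to 121, 158 and 175 FPKM (log2 fold change 4.25 ± 0.25, adjusted p = 0.000842). The arylsulfatase jgi_Trias1_141944, which splits sulfate esters, rose from 7.37, 4.55 and 8.6 FPKM to 66.2, 80.0 and 90.9 FPKM. Both of these calls held whichever library was left out. A pair of genes annotated as copper-exporting ATPase, jgi_Trias1_52834 and jgi_Trias1_61132, rose by 3.15 and 1.95, the first of them whichever library was left out.

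A pair of further genes was called whichever library was left out. jgi_Trias1_48114, annotated as 3-oxoacyl-[acyl-carrier protein] reductase, an enzyme of fatty acid synthesis, rose from 2.67, 5.86 and 6.55 FPKM to 63.3, 80.6 and 79.9 FPKM (log2 fold change 3.71 ± 0.35, adjusted p = 0.00319). jgi_Trias1_62736, annotated as the splicing helicase DHX16, rose from 36.7, 51.1 and 48.5 FPKM to 274, 234 and 212 FPKM (log2 fold change 2.38 ± 0.23, adjusted p = 0.00328).

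The 6 genes that fell with 6 libraries, of which the xylanase is given above, included the ammonium transporter jgi_Trias1_66787, which takes up ammonium from the medium, from 103, 172 and 126 FPKM to 31.5, 39.9 and 47.5 FPKM (log2 fold change -1.72 ± 0.28, adjusted p = 0.0241). It was the only call with 6 libraries in the nitrogen list of 22 genes, where 4 fell and 0 rose without control replicate 1. Nitrate reductase (jgi_Trias1_41338) was at 19.7, 36.6 and 36.0 FPKM in the controls and 12.6, 10.4 and 8.89 FPKM with dichlorvos, with no overlap and an adjusted p of 0.103 with 6 libraries and 0.00358 without control replicate 1. Urate oxidase (jgi_Trias1_29632), of purine breakdown, had 107, 772 and 752 FPKM in the controls and 324, 363 and 458 FPKM at 100 μg/mL. Control replicate 1 was below every treated library and the other controls were above, so the call without it (0.0144) contrasted with 0.993 with 6 libraries.

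A cation pump annotated as the sodium- and potassium-transporting ATPase (jgi_Trias1_24714) fell from 147, 223 and 204 FPKM to 71.7, 42.7 and 38.8 FPKM (log2 fold change -1.92 ± 0.30, adjusted p = 0.0216), and was at 4.02, 4.0 and 5.20 FPKM at 1000 μg/mL. The other 3 falls had no KEGG name, and jgi_Trias1_150921 alone of them carried GO terms, of developmental processes. jgi_Trias1_56705 had the largest fall, from 312, 334 and 166 FPKM to 23.4, 47.5 and 66.5 FPKM (log2 fold change -2.59 ± 0.43, adjusted p = 0.0269). jgi_Trias1_292686 fell from 132, 151 and 166 FPKM to 56.6, 70.4 and 70.4 FPKM (log2 fold change -1.17), and jgi_Trias1_150921 from 488, 700.1 and 529 FPKM to 174, 226 and 161 FPKM (log2 fold change -1.61 ± 0.25, adjusted p = 0.0186). None of the 6 falls was called without control replicate 2 or without treated replicate 2 or 3.

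In some lists control replicate 1 decided what was called. DNA replication and repair genes counted 1 rise with 6 libraries, 18 without control replicate 1 and 1 with the block among 102 genes, with medians of 0.15 and 0.60. The call common to these fits was the mitochondrial DNA polymerase gamma (jgi_Trias1_176143), from 8.09, 4.12 and 8.36 FPKM to 30.3, 22.7 and 25.9 FPKM. Replication factor A3 (jgi_Trias1_68147), a subunit of the single-strand binding complex, was at 76.3, 8.91 and 12.7 FPKM in the controls and 79.0, 43.6 and 32.6 FPKM with dichlorvos, so that control replicate 1 lay among the treated libraries and the other controls below all of them. REV1 (jgi_Trias1_91056), a polymerase of translesion synthesis, had 5.07, 0.40 and 1.38 FPKM against 9.94, 9.65 and 6.01 FPKM. The summed FPKM of the list were 3060.0, 1509 and 1618 in the controls and 2456, 2210.0 and 1999 at 100 μg/mL. Sterol and isoprenoid synthesis changed the sign of its median, -0.53 with 6 libraries and 0.17 without control replicate 1, and proteasome genes moved from 0.02 to 0.50. Among 56 fungal transcription factors 1 rose with 6 libraries, the C2H2 zinc finger gene jgi_Trias1_65433, from 12.1, 17.8 and 23.1 FPKM to 48.4, 59.1 and 65.4 FPKM (log2 fold change 1.69 ± 0.31, adjusted p = 0.0376), and 7 rose without control replicate 1.

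**Figure D4:**
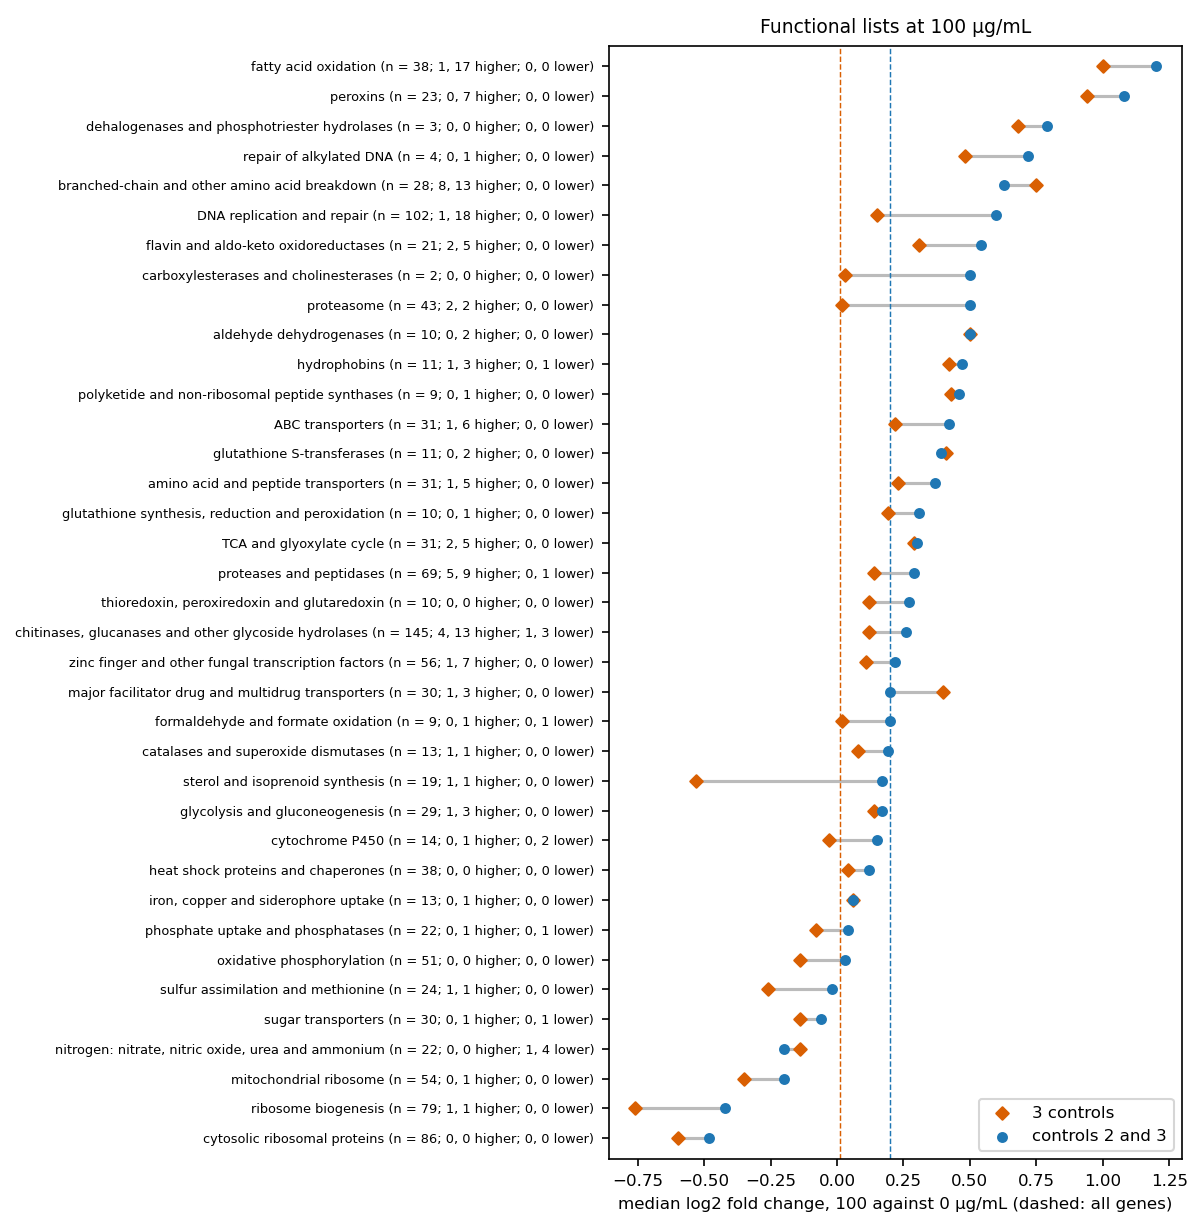
Median log2 fold change at 100 against 0 μg/mL of each functional list other than the pathways of single amino acids, which are not plotted, with 3 controls (diamonds) and with control replicates 2 and 3 (circles); dashed lines are the medians of all genes, 0.01 and 0.20. Labels give the number of genes tested and those called higher and lower, first with 6 libraries and then without control replicate 1; among the lists plotted fatty acid oxidation and peroxins lie highest, and ribosome biogenesis and cytosolic ribosomal proteins lowest, under both sets of controls.

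The remaining lists had few calls. Amino acid and peptide transporters counted 1 rise with 6 libraries of 31 genes (jgi_Trias1_432605, annotated as a choline transport protein, from 1.75, 1.10 and 0.88 FPKM to 18.5, 14 and 10 FPKM) and 5 without control replicate 1. The block called 1 of these transporters higher and 1 lower, and NOISeq with 6 libraries called 0 higher and 2 lower. Sulfur assimilation and methionine counted 1 rise of 24 with 6 libraries and 1 without control replicate 1, a cysteine synthase (jgi_Trias1_57934). It had 2.05, 2.62 and 2.79 FPKM in the controls and 8.22, 12.4 and 11.1 FPKM at 100 μg/mL. In that list all 3 treated libraries lay below the 3 controls in 9 genes and above them in 5, beside 7.93% and 12.3% of all genes. Its median log2 fold change was -0.26 with 6 libraries and -0.02 without control replicate 1. At an unadjusted p under 0.05, 6 of its genes fell and 3 rose with 6 libraries, and the block called 1 lower and 1 higher. With 6 libraries limma called no gene of sugar transport (30 genes), iron, copper and siderophore uptake (13), phosphate uptake (22), formaldehyde and formate oxidation (9), repair of alkylated DNA (4), aldehyde dehydrogenases (10), glutathione synthesis and peroxidation (10) or polyketide and non-ribosomal peptide synthases (9). At an unadjusted p under 0.05 these lists held, in the same order, 1, 1, 2, 2, 2, 1, 1 and 2 genes with a rise and 3, 0, 2, 1, 0, 0, 0 and 0 with a fall. Without control replicate 1 limma called 2 aldehyde dehydrogenases and 1 gene of each of the other lists higher, and 1 gene each of sugar transport, phosphate uptake and formaldehyde and formate oxidation lower. NOISeq called 1 sugar transporter lower and none of the others with 6 libraries, and the replicate block called 1 sugar transporter lower and 1 gene each of metal uptake, phosphate uptake and glutathione peroxidation higher.

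Genes with no KEGG or GO entry made up 3957 of the 8635 genes tested. Of these, 53 rose and 2 fell with 6 libraries, 131 and 10 with the block, and 228 and 45 without control replicate 1. They were 34.9% of the 152 higher calls with 6 libraries, less than their share of the genes tested. Here a KEGG entry was read only where its E-value was at most 1e-20. Genes without such an entry led the list of rises. jgi_Trias1_262912 had the largest one, from 0.59, 0.49 and 0.24 FPKM to 41.8, 80.5 and 49.6 FPKM (log2 fold change 5.29 ± 0.36, adjusted p = 0.00112), followed by jgi_Trias1_166253, with the GO term of transition metal ion binding, from 1.30, 0.54 and 0.54 FPKM to 38.6, 52.0 and 69.4 FPKM, and jgi_Trias1_62973, from 1.95, 0.64 and 0.80 FPKM to 43.0, 101 and 30.4 FPKM. jgi_Trias1_32125 was the most abundant of the 10 largest rises, with 60.9, 39.0 and 50.9 FPKM in the controls and 1128, 1208 and 654 FPKM at 100 μg/mL (log2 fold change 4.25 ± 0.31, adjusted p = 0.0013). jgi_Trias1_55004, 1 of the 5 most abundant called genes, rose from 751, 633 and 613 FPKM to 2325, 2375 and 1622 FPKM. The other genes among the 10 largest rises were jgi_Trias1_27564 (4.40), jgi_Trias1_145208 with the GO term of lyase activity (4.07) and a gene annotated as 3-isopropylmalate dehydrogenase, of leucine synthesis (jgi_Trias1_59059, 4.15), each value a log2 fold change, beside the amidase and the 2 peptidases given above. The aspartic protease lost its call without treated replicate 2 or 3, and the other 9 held whichever library was left out. In 3 called genes every control was listed at 0, jgi_Trias1_63791, jgi_Trias1_149192 and jgi_Trias1_64640, and their treated libraries lay between 1.5 and 7.18 FPKM.

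Some genes that rose at 100 μg/mL stood at other levels at the higher doses, and the following were chosen for that after their values were seen. The hydrophobin jgi_Trias1_54328 had 1079.7, 934 and 870.3 FPKM at 500 μg/mL and 188, 138 and 158 FPKM at 1000 μg/mL, the last being below every control, whereas the hydrophobin jgi_Trias1_54184 went on to 17807, 16302 and 13470.5 FPKM and 24209, 23825 and 25197 FPKM. The catalase jgi_Trias1_48513 had 29.8, 26.0 and 13.3 FPKM at 500 μg/mL and 4.14, 4.68 and 5.65 FPKM at 1000 μg/mL. jgi_Trias1_138684, with 45.1, 73.8 and 81.4 FPKM in the controls and 223, 247 and 198 FPKM at 100 μg/mL, was at 26.6, 33.1 and 32.4 FPKM at 1000 μg/mL. In these last 2 genes every library at 1000 μg/mL lay below every control.

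jgi_Trias1_70869 rose from 13.9, 15.0 and 17.5 FPKM to 92.3, 102 and 83.6 FPKM and stood at 7.20, 7.70 and 17.1 FPKM at 1000 μg/mL. A gene annotated as tryprostatin B 6-hydroxylase (jgi_Trias1_72517) had 43.4, 25.4 and 29.3 FPKM in the controls, 133, 132 and 98.0 FPKM at 100 μg/mL and 15.4, 19.6 and 24.2 FPKM at 1000 μg/mL. The reverse was seen in jgi_Trias1_150921, whose 174, 226 and 161 FPKM at 100 μg/mL were below all controls, while it had 1516, 1424 and 1880.4 FPKM at 500 μg/mL and 1259.9, 1392 and 1358 FPKM at 1000 μg/mL, above all of them. All doses share the same 3 controls, and differences between doses were not tested here.

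**Figure D5:**
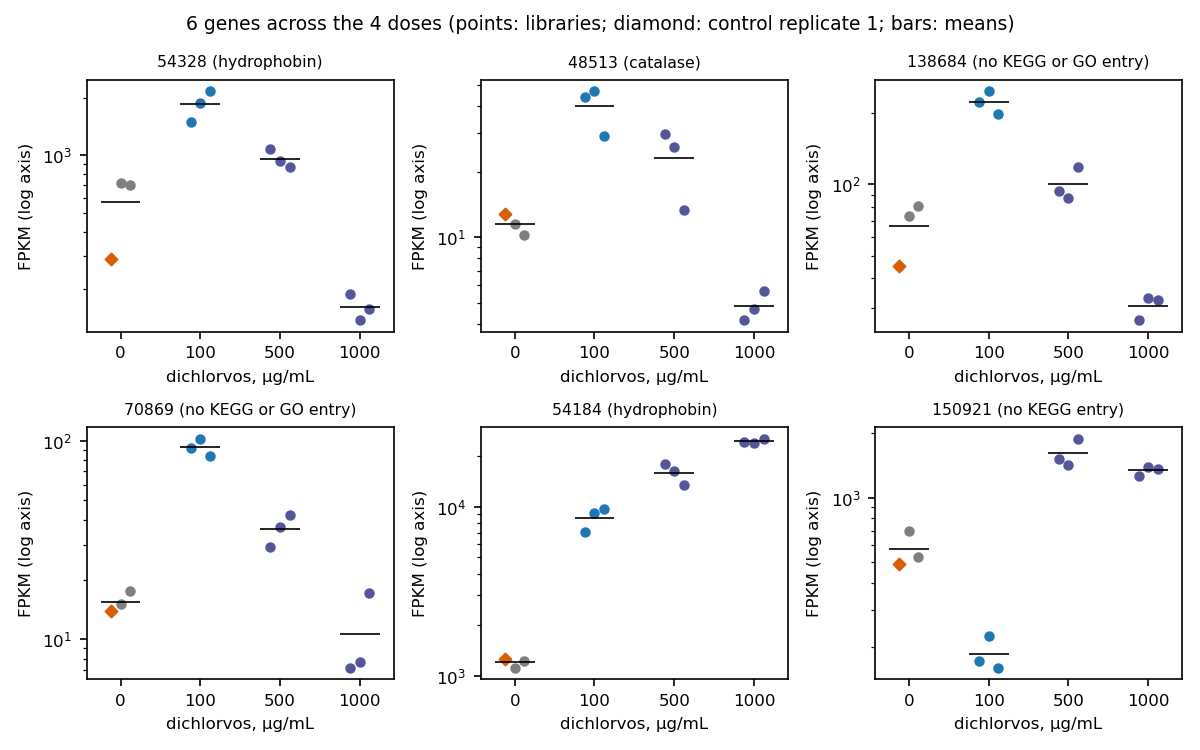
FPKM of 6 genes in each library at 0, 100, 500 and 1000 μg/mL dichlorvos, on log axes; points are libraries, the orange diamond is control replicate 1 and bars are group means. The first 4 genes are highest at 100 μg/mL, the hydrophobin in the fifth panel rises with each dose, and the gene in the last panel is lowest at 100 μg/mL.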

How the data were processed

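The authors deposited FPKM for each gene in every library. The labels name BWA, Bowtie and RSEM, with no versions, and the reference genome Trias1. FPKM are scaled to transcript length and library size, so sequencing depth is unknown and no counting interval is given. KEGG, GO and nr entries are those of the deposited table, with KEGG names kept at an E-value of at most 1e-20, and paralogs can share a name. From log2(FPKM + 1) of the genes that averaged 1 FPKM or more, limma 3.58.1 (R 4.3.3, lmFit and eBayes with an intensity trend, two-sided) gave fold changes, standard errors and Benjamini-Hochberg adjusted p-values over all 8635 genes. Fold changes on this scale understate the change of low genes. An exact permutation test of 3 against 3 libraries cannot go below p = 0.1. The code was tested on simulated data.

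Titles number the replicates 1 to 3. Deviations from the group means of same-numbered libraries correlated at r = 0.50, 0.17 and 0.44, all above 0.1. For this reason a fit with a block by number was run as well, while the main fit with 6 libraries had no block. Control replicate 2 correlated more with treated replicate 3 (r = 0.37), and deviations within a group depend on each other. The block is therefore an alternative and not a known pairing. Alternatives left out each library, changed the pseudocount, filter and scaling, or used the study's NOISeq rule, rewritten here for FPKM.

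Members and lists were chosen with earlier results of these data known. Lists are patterns searched in the annotation. Genes were named by rule (the 10 largest rises and falls with at least 10 FPKM in the higher group, the 5 most abundant called genes, and up to 3 genes per list), 85 in all, and others after their values were seen, including the pathways of single amino acids and the dose comparisons.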

Additional observations from a re-analysis of the deposited data

How the results depend on the processing

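The counts of called genes depended on the controls, the scaling and the test. With the 2-group limma fit, 152 genes were higher and 6 lower. Leaving out 1 library at a time gave 23 to 590 higher and 0 to 80 lower genes. The replicate block, which pairs libraries by number, gave 319 and 21, and among the other genes named in the text it changed no call beyond those given beside them. A fit of all 4 groups gave 409 and 50, or 685 and 99 without control replicate 1. Array quality weights gave 860 and 200. Centring each library on its median gave 135 and 15, or 357 and 217 without control replicate 1, and under centring 935 genes lay above and 1032 below all controls. The NOISeq rule gave 59 and 15, or 204 and 36 without control replicate 1. A pseudocount of 0.1, no filter or a minimum mean of 5 FPKM, TPM and no intensity trend kept the counts between 132 and 154 higher and 4 and 7 lower. No named gene changed direction while called. The causes of these differences were not tested. With 3 libraries a group and no known depth, genes of low FPKM and changes under the threshold, such as those of single ribosomal protein genes, are measured least firmly.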
